A study of Homo sapiens with 4 samples.

Results

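DNA damage signalling and repair was followed here through 52 transcripts in human J.gamma1 cells given FB23-2 or the DMSO vehicle. The members were listed by name, from homologous recombination, the Fanconi pathway, damage kinases, mismatch repair, end joining and excision repair, and each name matched 1 of the 64252 Ensembl gene IDs in the deposited count table. FB23-2 cells were given 10 µM of the compound, a small-molecule inhibitor of the RNA N6-methyladenosine demethylase FTO, and Control cells were given DMSO at under 0.1%. Both groups were collected after 48 h and held 2 independent biological replicates each. J.gamma1 descends from Jurkat, a line grown from a human T-lineage lymphoblastic leukaemia, and is a mutant without PLCG1, a phospholipase of antigen receptor signalling. Jurkat cells are also known to be defective in p53 and in DNA mismatch repair. These data therefore describe 1 line, 1 dose and 1 time, and N6-methyladenosine itself was not measured in these files.

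Cells mend broken and altered DNA by several routes. Breaks are rejoined end to end by the Ku proteins, DNA-PK and ligase 4, or copied from a sister chromatid by the BRCA proteins and their partners, mainly in S and G2 phase. Crosslinks between strands are handled by the Fanconi proteins, altered bases by excision repair, and replication errors by mismatch repair. The kinases ATM and ATR sense damage and pass the signal on to CHEK2 and CHEK1. In developing T cells, end joining also completes the rearrangement of antigen receptor genes.

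Libraries held 37804516 and 33983246 counts with FB23-2, and 24615359 and 34897961 counts in Control. No library was a copy of another. A chi-square of the counts over genes, divided by its degrees of freedom, came to 6.69 for the FB23-2 pair, 7.48 for the Control pair and 74.6 to 82.3 across groups. The 11 T-cell markers summed to 1550 and 1471 CPM (library-size-scaled counts, with trimmed mean of M values factors) with FB23-2 and to 2047 and 2041 CPM in Control. Of these markers, 8 were called lower with FB23-2 and 3 were not called, beside 20.3% of all tested genes called lower. The sums do not bear on the loss of PLCG1. Myeloid markers summed to 1.82 to 2.43 CPM with FB23-2 and 1.71 to 2.49 CPM in Control. Of the B-cell markers, CD79A stood at 42.3 to 44.5 CPM with FB23-2 and at 38.9 to 44.3 CPM in Control, while PAX5 had 4 counts in 1 Control library and 0 elsewhere. Of 6 fibroblast and epithelial markers, the collagen gene COL1A2 was lower, with 7 and 0 counts with FB23-2 and 62 and 74 counts in Control, and no other was called.

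Repair transcripts did not move as a block. Of the 52 members, all of which passed the filter on low counts, 14 rose and 11 fell with FB23-2 at an adjusted p under 0.05 (edgeR quasi-likelihood test, Benjamini-Hochberg over 18817 genes). That made 48.1% called, beside 42.1% of all tested genes and 58.8% of tested genes at a mean of 10 CPM or more. Separately by direction, 21.8% of all tested genes were higher and 20.3% were lower, and 31.6% and 27.2% of those at 10 CPM or more. Every member had a mean above 10 CPM, so the background at that level is the closer match. The share of members called lay below it and above that of all tested genes. An absolute log2 fold change of 0.5 or more together with the call was seen in 4 members, beside 20.9% of all tested genes and 21.4% of those at 10 CPM or more. With upper quartile scaling the split was 12 higher and 17 lower. The median log2 fold change of the members was 0.01, beside 0.00 over all tested genes and 0.03 over those at 10 CPM or more. The median absolute value was 0.23, beside 0.34 and 0.27 in the same order. The FB23-2 and Control libraries did not overlap in CPM for 41 of 52 members, beside 70.8% of tested genes.

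Transcripts of BRCA1, BARD1, BRCA2, RAD54B, the resection factors RBBP8 and EXO1, the helicase BLM and DNA polymerase theta were higher with FB23-2. So were those of the paired Fanconi proteins FANCD2 and FANCI, and of FANCC, FANCG, CHEK2 and XRCC1. Of the BRCA partners, PALB2 and BRIP1 were not called. Both Ku subunits, the DNA-PK catalytic subunit, the uracil glycosylase UNG, the Fanconi subunit FANCF, MSH6 and ATR were lower. The recombination gene RAD51D, the end sensor MRE11, the helicase WRN and the ligase LIG3 were lower too. Only UNG passed a test against a change of 1.5-fold, which 5.91% of all tested genes passed.

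**Figure D1:**
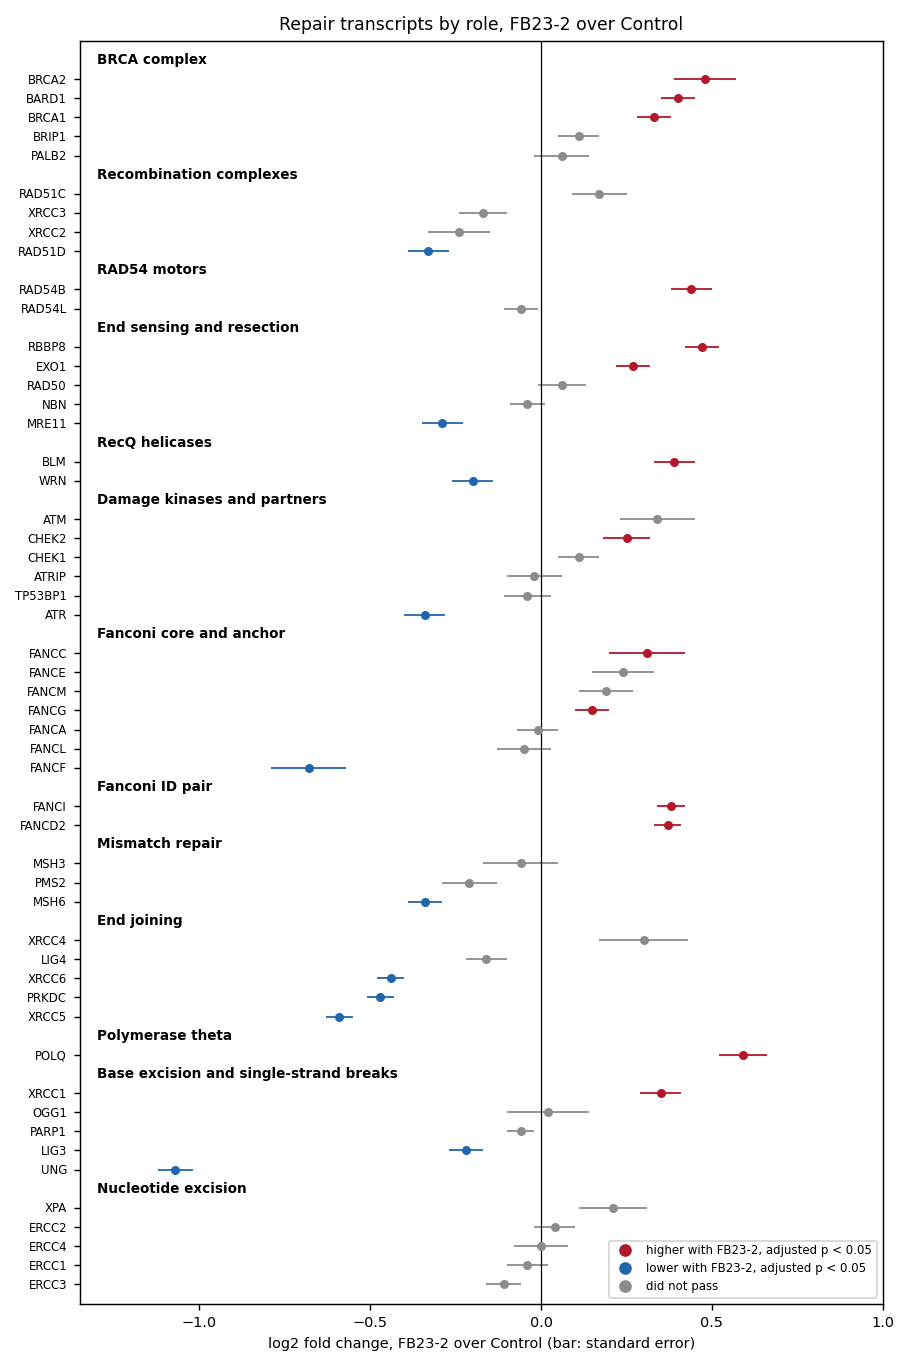
Log2 fold change, FB23-2 over Control, of the 52 members by role, with the standard error as a bar and the edgeR call as colour. The values lay between -1.07 for UNG and 0.59 for POLQ, and the members called higher and lower numbered 14 and 11.

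The BRCA group holds the ubiquitin ligase pair BRCA1 and BARD1, BRCA2, which acts in strand exchange, PALB2, which links BRCA1 to BRCA2, and the helicase BRIP1. In it 3 of 5 members rose and 0 fell. The count of lower members was also 0 at an unadjusted p under 0.05 and with DESeq2. BRCA2 (chromosome 13, 32315474 to 32400266, hg38) stood at 136 and 159 CPM in the FB23-2 libraries, against 99.5 and 111 CPM in the Control libraries. Both FB23-2 libraries lay above both Control libraries, which gave a log2 fold change of 0.48 ± 0.09 (standard error, here and below; edgeR adjusted p = 0.00757). BRCA1 stood at 146 and 154 CPM with FB23-2, against 117 and 122 CPM in Control (0.33 ± 0.05, edgeR adjusted p = 0.000567). Its partner BARD1 stood at 97.7 and 101 CPM with FB23-2, against 74.2 and 75.9 CPM in Control (0.40 ± 0.05, edgeR adjusted p = 0.000223). The 2 partners kept close levels per exon length in every library, with BARD1 at 1.01 and 0.990 times BRCA1 with FB23-2 and at 0.963 and 0.944 times in Control. PALB2 did not pass, at 37.8 and 39 CPM with FB23-2 against 38.9 and 35.2 CPM in Control, and its groups overlapped. BRIP1 did not pass either (0.11 ± 0.06).

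RAD51C, RAD51D, XRCC2 and XRCC3 form small complexes that act in homologous recombination. Here 1 of 4 fell and 0 rose, and 0 were higher at an unadjusted p under 0.05 or with DESeq2. RAD51D stood at 44.7 and 44.5 CPM with FB23-2, against 58.2 and 54.4 CPM in Control, with no overlap (-0.33 ± 0.06, edgeR adjusted p = 0.00266). RAD51C pointed the other way without passing, at 40.9 and 37 CPM with FB23-2 and 36.6 and 33.1 CPM in Control (0.17 ± 0.08). XRCC2 missed the threshold (-0.24 ± 0.09, edgeR adjusted p = 0.053) but passed in 7 of 13 other settings, at adjusted p values of 0.00569 to 0.0349, among them the one without FB23-2 replicate 2 (0.00601). XRCC3 did not pass (-0.17 ± 0.07) except with upper quartile scaling (adjusted p = 0.0322) and a stricter filter (0.0406), and it shares 76.7% of its exon bases with KLC1 on the opposite strand. Since no strand setting is stated, reads of XRCC3 and KLC1 cannot be told apart over those bases.

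The RAD54 motors remodel the paired DNA during strand exchange. RAD54B stood at 73.4 and 73.3 CPM with FB23-2, against 54.8 and 53.2 CPM in Control (0.44 ± 0.06, edgeR adjusted p = 0.000219). The libraries of the groups did not overlap. RAD54B shares 59.1% of its exon bases with FSBP on the same strand, a gene counted at a mean of 0.379 CPM with FB23-2 and 0.228 CPM in Control. Since the way genes were counted is not given, reads of RAD54B and FSBP cannot be told apart over those bases. RAD54L, at 97.7 and 98 CPM with FB23-2 and 101 and 102 CPM in Control, did not pass (-0.06 ± 0.05).

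Break ends are sensed by MRE11, RAD50 and NBN, which act as 1 complex, and are then cut back by RBBP8 (also called CtIP) and by the nuclease EXO1. The resection factors rose, while the sensors did not. RBBP8 stood at 125 and 124 CPM with FB23-2, against 92.8 and 87.5 CPM in Control (0.47 ± 0.05, edgeR adjusted p = 7.76e-05). EXO1 stood at 117 and 115 CPM with FB23-2, against 98.3 and 93.4 CPM in Control (0.27 ± 0.05, edgeR adjusted p = 0.00189). MRE11 fell to 59.8 and 66.1 CPM with FB23-2, against 78.1 and 76 CPM in Control (-0.29 ± 0.06, edgeR adjusted p = 0.00493). The libraries of the groups did not overlap for any of these genes. Its partners RAD50 (0.06 ± 0.07) and NBN (-0.04 ± 0.05) overlapped between groups and did not pass, although NBN passed after removal of trends with gene length and GC content (-0.18, adjusted p = 0.0137).

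The RecQ helicases unwind joined DNA molecules, and BLM in particular dissolves crossed-over intermediates. BLM stood at 87.3 and 93.7 CPM with FB23-2, against 66.7 and 71.5 CPM in Control (0.39 ± 0.06, edgeR adjusted p = 0.000803). WRN stood at 50.2 and 49.8 CPM with FB23-2, against 56.7 and 58 CPM in Control (-0.20 ± 0.06, edgeR adjusted p = 0.023). Neither helicase overlapped between groups. The WRN call was lost when any 1 library was left out, at adjusted p values of 0.0517 without FB23-2 replicate 1, 0.0844 without FB23-2 replicate 2, 0.0545 without Control replicate 1 and 0.141 without Control replicate 2. It was also lost with scaling by library size alone (0.0684).

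Among the damage kinases and their partners, 1 of 6 rose and 1 fell. ATR, the kinase that answers stalled replication forks, stood at 44.8 and 47.9 CPM with FB23-2, against 59.8 and 57.6 CPM in Control (-0.34 ± 0.06, edgeR adjusted p = 0.00237). ATM, the kinase that answers broken ends, stood at 117 and 143 CPM with FB23-2, against 97.5 and 108 CPM in Control. FB23-2 replicate 2 was the highest ATM library and the FB23-2 replicates lay far apart, so the value of 0.34 ± 0.11 did not pass (edgeR adjusted p = 0.0727). ATM passed without FB23-2 replicate 1 (0.46, adjusted p = 0.00194), with DESeq2 (0.00182), with a replicate block (0.000422) and after removal of length and GC trends (0.0248). Per exon length, ATR stood at 0.734 and 0.642 times ATM with FB23-2, against 1.18 and 1.03 times in Control. ATR and ATM were the lowest and the highest of these 6, so the ratio restates their log2 fold changes. CHEK2, the kinase below ATM, rose by 0.25 ± 0.07 (edgeR adjusted p = 0.0133), a call lost without FB23-2 replicate 2 (0.074) and without Control replicate 1 (0.104). CHEK1, the kinase below ATR, did not pass (0.11 ± 0.06). ATRIP, the ATR partner (-0.02 ± 0.08), and TP53BP1, a chromatin protein that shields break ends from resection (-0.04 ± 0.07), overlapped between groups.

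The Fanconi core complex attaches ubiquitin to FANCD2 and FANCI, which then clamp onto crosslinked DNA. Both clamp transcripts rose by like amounts. FANCI, the more abundant of them, stood at 319 and 325 CPM with FB23-2, against 244 and 249 CPM in Control (0.38 ± 0.04, edgeR adjusted p = 5.26e-05). FANCD2 stood at 180 and 176 CPM with FB23-2, against 139 and 138 CPM in Control (0.37 ± 0.04, edgeR adjusted p = 0.000129). Per exon length, FANCD2 stood at 0.523 and 0.503 times FANCI with FB23-2 and at 0.527 and 0.513 times in Control, so the ratio of the clamp transcripts overlapped between groups. FANCI shares 5.9% of its exon bases with POLG on the opposite strand, which fell (-0.72).

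Of the 7 core and anchor transcripts, 2 rose and 1 fell. FANCF, a small adaptor subunit with a single-exon gene (chromosome 11, 22622890 to 22625841), stood at 15 and 15.2 CPM with FB23-2, against 26.5 and 22.3 CPM in Control. FANCF changed by -0.68 ± 0.11 on the log2 scale (edgeR adjusted p = 0.000886), with no overlap between groups, and lay next to UNG at the low end of the members. GAS2, which shares 11.3% of the FANCF exon bases on the opposite strand, was lower as well (-0.63). FANCC stood at 17.6 and 19.7 CPM with FB23-2, against 15.5 and 14.7 CPM in Control (0.31 ± 0.11, edgeR adjusted p = 0.0462). FANCG passed as narrowly (0.15 ± 0.05, edgeR adjusted p = 0.0464). Both calls were lost with any 1 library left out, at adjusted p values of 0.0545 (without FB23-2 replicate 1), 0.207 (FB23-2 replicate 2), 0.117 (Control replicate 1) and 0.224 (Control replicate 2) for FANCC. For FANCG they were 0.123, 0.156, 0.125 and 0.238 in the same order. With DESeq2 neither passed (0.122 for FANCC and 0.141 for FANCG). FANCE (0.24 ± 0.09), the translocase FANCM (0.19 ± 0.08), FANCA (-0.01 ± 0.06) and the ubiquitin ligase FANCL (-0.05 ± 0.08) did not pass. In other settings, FANCE passed with scaling by library size alone (adjusted p = 0.0303) and after removal of length and GC trends (0.0215), and FANCM with scaling by library size alone (0.0428). FANCA shares 23.6% of its exon bases with ZNF276 on the opposite strand, which fell (-0.59).

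End joining members that were called were lower, among them those with the highest levels per exon length of all members. XRCC5 and XRCC6 encode Ku80 and Ku70, which thread onto a broken end and recruit the kinase encoded by PRKDC. XRCC5 (chromosome 2, 216107464 to 216206303) stood at 385 and 389 CPM with FB23-2, against 574 and 587 CPM in Control (-0.59 ± 0.04, edgeR adjusted p = 3.12e-06). XRCC6 stood at 491 and 463 CPM with FB23-2, against 629 and 665 CPM in Control (-0.44 ± 0.04, edgeR adjusted p = 4.95e-05). PRKDC stood at 460 and 501 CPM with FB23-2, against 666 and 661 CPM in Control (-0.47 ± 0.04, edgeR adjusted p = 3.85e-05). In each of these genes the Control libraries lay well above the FB23-2 libraries, and the calls held in all 12 settings other than the test against 1.5-fold. The genes of the ligation step were not called. LIG4, the ligase, did not pass (-0.16 ± 0.06, edgeR adjusted p = 0.0654), though it did with upper quartile scaling (0.0262), a stricter filter (0.0359) and removal of length and GC trends (0.00314). Its scaffold XRCC4 stood at 18.5 and 15.8 CPM with FB23-2 and at 15.4 and 12.9 CPM in Control (0.30 ± 0.13, edgeR adjusted p = 0.0908). No member of the group rose (0 of 5), where 1 was higher at an unadjusted p under 0.05 and 0 with DESeq2.

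Polymerase theta, encoded by POLQ, joins resected ends through short stretches of matching bases. POLQ (chromosome 3, 121431427 to 121546641) stood at 98 and 103 CPM with FB23-2, against 62.2 and 71 CPM in Control. It was the member with the highest log2 fold change, 0.59 ± 0.07 (edgeR adjusted p = 0.000126), which corresponds to a 1.5-fold higher level. Per exon length, POLQ stood at 0.148 and 0.154 times XRCC5 with FB23-2, against 0.063 and 0.0703 times in Control. This ratio sets the highest member against a member near the low end, so it restates their log2 fold changes. The stretch before the RefSeq start of POLQ is shown because POLQ is the highest member, with the letters of a cell cycle element in capitals (TTTGAA on either strand). Another match lies past the printed stretch, at bases 4 to 9 from that start. RefSeq places the printed stretch on the minus strand of GRCh38.p14 at chr3:121545989-121546238. That lies inside the gene bounds given above, which come from GENCODE and not from RefSeq.
POLQ: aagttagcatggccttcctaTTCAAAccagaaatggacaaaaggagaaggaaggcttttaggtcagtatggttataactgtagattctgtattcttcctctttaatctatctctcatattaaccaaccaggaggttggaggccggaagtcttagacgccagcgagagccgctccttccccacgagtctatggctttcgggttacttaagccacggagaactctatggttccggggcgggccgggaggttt

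**Figure D2:**
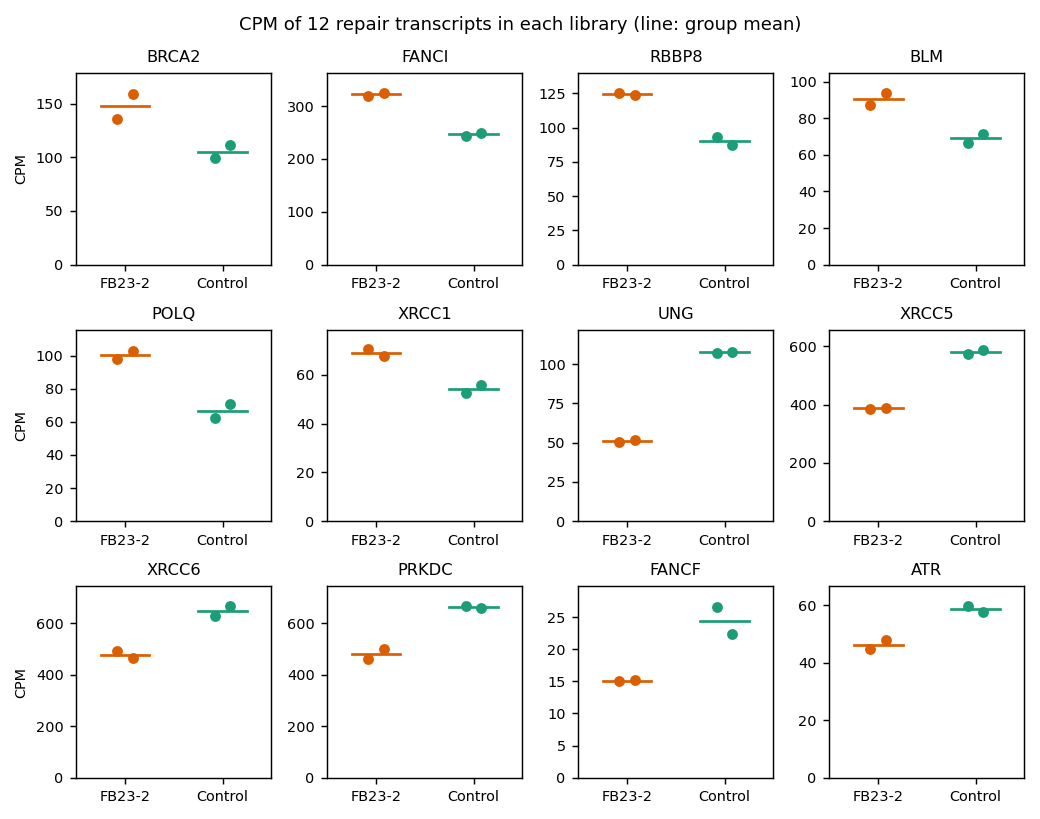
CPM of 12 members in each library, with FB23-2 left of Control, a point for each library and a line for the group mean. The 12 were taken from the called members. The libraries of the groups did not overlap in any panel, as was also so for 70.8% of all tested genes. XRCC5 stood at 385 and 389 CPM with FB23-2 against 574 and 587 CPM in Control.

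Base excision repair held the largest change. UNG encodes the glycosylase that removes uracil from DNA, in a nuclear and a mitochondrial form that the gene counts do not separate. UNG stood at 50.7 and 51.6 CPM with FB23-2, against 107 and 108 CPM in Control. The means were 51.1 ± 0.64 CPM with FB23-2 and 108 ± 0.222 CPM in Control (SD, n = 2 each), which is 2.1-fold higher in Control than with FB23-2. On the log2 scale UNG changed by -1.07 ± 0.05 (edgeR adjusted p = 1.03e-06), and it passed in every one of 13 other settings, with a highest adjusted p of 0.000146. It was the only member changed at least 2-fold. The stretch around its start, on the plus strand of GRCh38.p14 at chr12:109097347-109097606, is shown because UNG is the lowest member, with the letters CCAAT in capitals.
UNG: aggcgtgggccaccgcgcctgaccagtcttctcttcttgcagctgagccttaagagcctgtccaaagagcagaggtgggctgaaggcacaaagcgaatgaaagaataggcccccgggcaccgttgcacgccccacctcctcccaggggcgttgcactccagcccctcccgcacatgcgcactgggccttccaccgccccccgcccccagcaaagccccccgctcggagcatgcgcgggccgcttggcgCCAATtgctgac

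The other members of this group divided. XRCC1, a scaffold of DNA nick repair, stood at 70.4 and 67.8 CPM with FB23-2, against 52.5 and 55.7 CPM in Control (0.35 ± 0.06, edgeR adjusted p = 0.00142). LIG3, the ligase that binds XRCC1, fell by 0.22 on the log2 scale (SE 0.05, edgeR adjusted p = 0.00562), a call lost without Control replicate 2 (0.0549). LIG3 shares 29.1% of its exon bases with RFFL on the opposite strand, whose value was 0.11. PARP1, which marks nicks with poly(ADP-ribose), did not pass (-0.06 ± 0.04) except with upper quartile scaling (-0.10, adjusted p = 0.0494), nor did OGG1, the glycosylase for oxidised guanine (0.02 ± 0.12).

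Among the mismatch repair members 1 of 3 fell and 0 rose, with 0 higher also at an unadjusted p under 0.05 and with DESeq2. MSH6, which recognises single mispaired bases, stood at 108 and 103 CPM with FB23-2, against 131 and 136 CPM in Control (-0.34 ± 0.05, edgeR adjusted p = 0.00045). FBXO11, which shares 16.2% of the MSH6 exon bases on the opposite strand, was higher (0.63). MSH3, which recognises longer loops, stood at 15.7 and 15.9 CPM with FB23-2, inside the Control range of 15.2 and 17.4 CPM (-0.06 ± 0.11). PMS2, a nicking subunit, did not pass (-0.21 ± 0.08, edgeR adjusted p = 0.0616), but did with upper quartile scaling (0.0308), a stricter filter (0.0351) and removal of length and GC trends (0.0272). It is uncertain besides, since PMS2 is known to have near-identical pseudogene copies. Of the nucleotide excision members, 0 of 5 were called, with 0 at an unadjusted p under 0.05 and 0 with DESeq2. In other settings, ERCC3 passed with upper quartile scaling (-0.15, adjusted p = 0.0469) and XPA after removal of length and GC trends (0.27, adjusted p = 0.0384). XPA, which checks the lesion, stood at 28.3 and 24.8 CPM with FB23-2 and 23.7 and 22.4 CPM in Control (0.21 ± 0.10). ERCC3, a helicase that opens the DNA, stood at 76.1 and 73.2 CPM with FB23-2 and 80.1 and 81 CPM in Control (-0.11 ± 0.05). The second helicase ERCC2 (0.04 ± 0.06) and the paired nuclease genes ERCC1 (-0.04 ± 0.06) and ERCC4 (0.00 ± 0.08) lay close to 0. ERCC1 shares 28.6% of its exon bases with POLR1G on the opposite strand, which fell (-1.11). Shares of 25% or more with another gene were also found for TP53BP1, RAD54L, ERCC4, ATRIP and RAD50, so the values of these uncalled members can include reads of a neighbour.

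Levels can be compared between genes only per length, here as CPM per kilobase of merged exon. On that scale the members covered a wide range, from 145 for XRCC6 to 1.46 for FANCC with FB23-2 and from 197 to 1.18 in Control for the same genes. XRCC6, XRCC5 and PARP1 held ranks 1 to 3 in both groups. UNG ranked 12 with FB23-2 (19.9 CPM per kilobase), against 5 in Control (41.9 CPM per kilobase), and POLQ ranked 27 with FB23-2 (10.7), against 38 in Control (7.08). FANCI ranked 4 with FB23-2 (41.5), against 6 in Control (31.8).

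**Figure D3:**
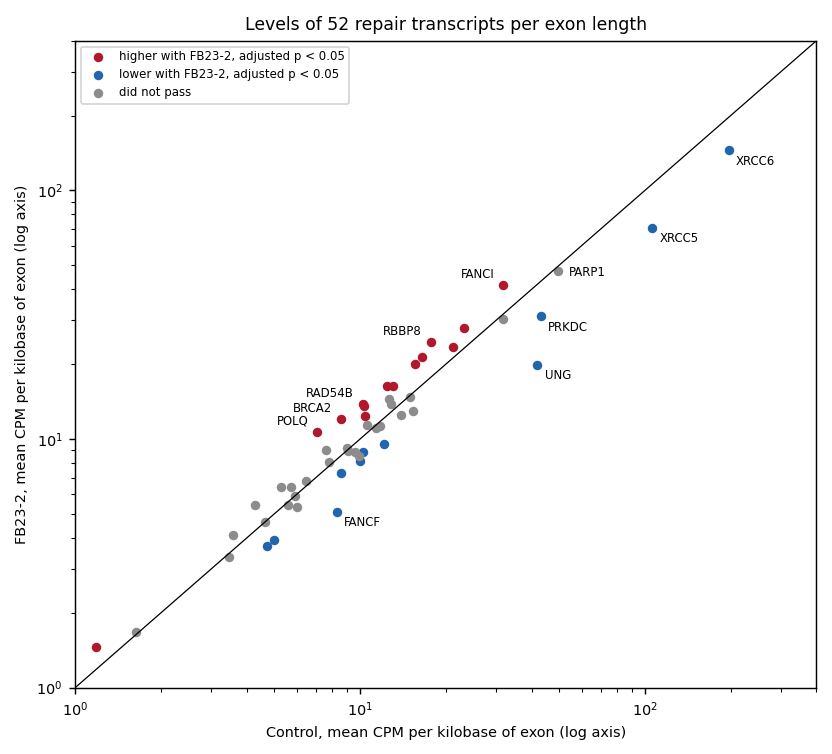
Mean CPM per kilobase of merged exon for each member, FB23-2 on the vertical and Control on the horizontal axis, both log axes, with the line of equal levels and the edgeR call as colour. XRCC6, XRCC5, PRKDC and UNG are high and below the line, while FANCI, RBBP8, BRCA2 and POLQ are above it.

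The same pathways hold many further genes, and 103 of them were listed by function and all tested. Of these, 30 rose and 24 fell (52.4% called, beside 42.1% of all tested genes and 58.8% of those at 10 CPM or more), with a median log2 fold change of -0.01. Recombination and fork genes outside the member list were higher in 11 of 18 cases and lower in 0, with 0 lower also at an unadjusted p under 0.05 and with DESeq2. Their median was 0.34. RAD51AP1, which aids strand pairing, stood at 169 and 166 CPM with FB23-2, against 99.6 and 95.3 CPM in Control (0.78 ± 0.05, edgeR adjusted p = 2.72e-06). RAD52, an annealing protein, stood at 27.5 and 30.2 CPM with FB23-2, against 16.4 and 17.7 CPM in Control (0.75 ± 0.10). TIMELESS, a fork protection protein of the damage signalling list, stood at 365 and 351 CPM with FB23-2, against 212 and 212 CPM in Control (0.75 ± 0.04). TIPIN, its partner in the same list, was lower (-0.26 ± 0.09, edgeR adjusted p = 0.0433) and was named after its values were seen. It stood at 20.3 and 20.8 CPM with FB23-2, against 23.7 and 25.3 CPM in Control. In that signalling list 7 of 24 genes rose and 8 fell. SHLD2, a shieldin subunit that acts with TP53BP1 against resection, was lower, at 52.8 and 48.7 CPM with FB23-2 and 74.6 and 79.2 CPM in Control (-0.60 ± 0.06).

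Further base excision genes moved both ways, with 3 higher and 3 lower of 15. APEX1, the nuclease that cuts the site left by UNG, stood at 102 and 102 CPM with FB23-2, against 207 and 202 CPM in Control (0.499 times the Control level, edgeR adjusted p = 6.05e-07). The glycosylase NTHL1 was lower too, at 13.7 and 10.9 CPM with FB23-2 and 22.1 and 20.1 CPM in Control (-0.76 ± 0.13), and it shares 16.5% of its exon bases with TSC2 on the opposite strand. NEIL3, another glycosylase, stood at 146 and 150 CPM with FB23-2, against 81.5 and 82.1 CPM in Control (0.85 ± 0.05). PARP2, the PARP1 relative, stood at 137 and 132 CPM with FB23-2, against 76.7 and 75.3 CPM in Control (0.82 ± 0.05). UNG and APEX1, which act in sequence, were thus at 0.475 and 0.499 times their Control level.

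Among the remaining pathways, APLF, a histone chaperone of end joining, had the highest value of the 103, at 16 and 14.9 CPM with FB23-2 and 5.4 and 5.43 CPM in Control (1.51 ± 0.14, edgeR adjusted p = 2.63e-05). Of the 8 further end-joining genes, 1 rose and 2 fell. Of the 13 further genes of nucleotide excision and transcription-coupled repair, 3 rose and 4 fell. The risen ones were XPC (0.26 ± 0.06), DDB2 (0.35 ± 0.06) and ERCC6 (0.45 ± 0.11), which act in damage recognition and were named after their values were seen. UVSSA, a factor of transcription-coupled repair, stood at 9.63 and 11.9 CPM with FB23-2, against 22.7 and 25.9 CPM in Control (-1.19 ± 0.13). Of the 10 genes for direct reversal and translesion synthesis, 2 rose and 3 fell. The risen ones were the translesion polymerases POLH (0.25 ± 0.07, edgeR adjusted p = 0.0152) and POLK (0.26 ± 0.07, edgeR adjusted p = 0.012), and the ubiquitin ligase RAD18 fell (-0.18 ± 0.05, edgeR adjusted p = 0.0209). The tally covers all listed genes, and these 3 were named after their values were seen. The other lower genes reverse alkylation damage. ALKBH2 stood at 12.2 and 13.2 CPM with FB23-2, against 27.6 and 29.3 CPM in Control (-1.17 ± 0.10), and MGMT stood at 21.6 and 19.3 CPM with FB23-2, against 38.1 and 36.4 CPM in Control (-0.86 ± 0.09). Their list mate ALKBH3 did not pass (-0.03 ± 0.07). Like FTO, ALKBH2 and ALKBH3 belong to the AlkB family of dioxygenases. Fanconi and crosslink genes outside the member list were 3 higher and 3 lower of 12, and further mismatch repair genes were 0 higher (0 also at an unadjusted p under 0.05 and with DESeq2) and 1 lower of 3.

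**Figure D4:**
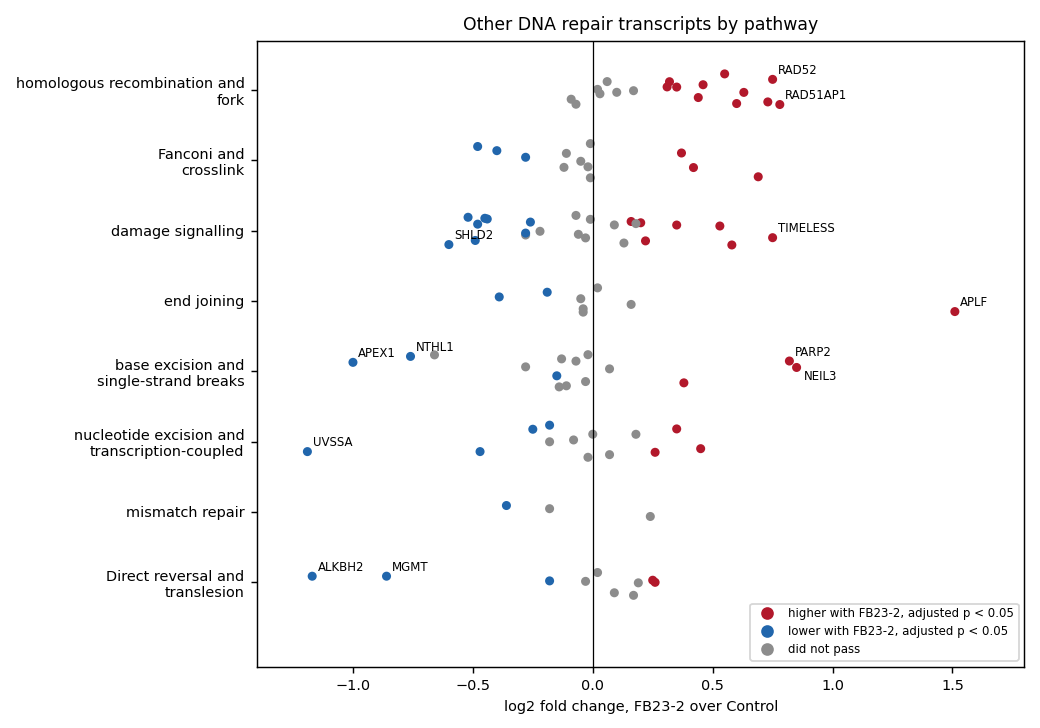
Log2 fold change, FB23-2 over Control, of the 103 further repair genes by pathway, with the edgeR call as colour and names for the 6 highest and 6 lowest called genes. Values ran from -1.19 for UVSSA to 1.51 for APLF, and in the recombination row the called genes all lay above 0 (11 higher and 0 lower).

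Promoter windows of 300 bases, 250 before the RefSeq gene start and 50 from it, were found in the RefSeq table for 46 of 52 members. Windows were missing for RAD54B and FANCI, which rose, for XRCC5, PRKDC and WRN, which fell, and for NBN, which was not called. The RefSeq start can differ from the GENCODE gene bounds given elsewhere in the text. The letters of an E2F site (TTTCCCGC, TTTGGCGC, TTTCGCGC or TTTGCCGC, either strand) were in 9 of 46 windows, or 19.6%, beside 4.72% of the 16898 windows of tested genes and 3.31% of all 35116 windows. They were in 3 of 12 windows of members that rose, in 2 of 8 of those that fell and in 4 of 26 of the rest. CCAAT was in 3 of 12 windows of members that rose and 5 of 8 of those that fell, and also in 14 of 26 of those not called, or 22 of 46 in all (47.8%), beside 34.5% for tested genes. In the same order, TTTGAA was in 3 of 12, 0 of 8 and 2 of 26 windows, or 10.9% in all, beside 10.6%. The MYC-type E-box CACGTG was in 2 of 12, 1 of 8 and 1 of 26, or 8.7% in all, beside 9.29%. The palindromic NRF1 element was in 0 of 46 windows, beside 1.95%. A match in the window is a description of the letters and not a bound site.

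Stretches with an E2F match are shown for members that rose (FANCD2, EXO1 and FANCC) and for a member that fell (MSH6), to compare where the letters lie; these 4 were chosen after their matches were seen. The E2F letters are in capitals, as is a CCAAT match on the opposite strand (ATTGG) in MSH6. They lie on GRCh38.p14 at chr3:10026377-10026456 (plus strand), chr1:241848144-241848223 (plus), chr9:95317739-95317899 (minus) and chr2:47783085-47783164 (plus). With the first base from the RefSeq start as position 1, the match began at -2 in FANCD2, at 5 in EXO1, at -172 and -46 in FANCC and at 4 in MSH6. The RefSeq starts of FANCC and MSH6 lie far inside their GENCODE bounds. In GENCODE, FANCC reaches 95426796 on the minus strand and MSH6 begins at 47695530 on the plus strand.
FANCD2: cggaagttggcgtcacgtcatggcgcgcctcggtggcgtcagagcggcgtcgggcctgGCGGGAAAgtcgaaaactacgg
EXO1: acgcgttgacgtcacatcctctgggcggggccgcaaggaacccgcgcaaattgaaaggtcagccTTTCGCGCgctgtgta
FANCC: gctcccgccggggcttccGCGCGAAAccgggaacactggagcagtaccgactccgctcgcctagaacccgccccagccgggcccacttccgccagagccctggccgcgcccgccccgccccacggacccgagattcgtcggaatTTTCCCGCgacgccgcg
MSH6: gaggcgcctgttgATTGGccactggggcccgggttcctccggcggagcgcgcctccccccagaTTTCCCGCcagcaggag

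Some repair genes are known to follow the cell cycle, which was not measured here, and cycle markers moved between the groups as well. Of 20 markers of G2 and mitosis, 15 were higher and 3 lower with FB23-2. The lower ones were CCNB1 (-0.42), KIF20A (-0.44) and PLK1 (-0.30), and AURKA and BUB1 were not called. Their sum over all 20 was 7530 and 7614 CPM with FB23-2, against 5350 and 5404 CPM in Control. That sum weighs TOP2A and MKI67 most, the markers with the highest CPM in the list, and both were higher. Of 15 S phase markers, 4 were higher and 8 lower, and their sum was 3506 and 3369 CPM with FB23-2, against 3895 and 3964 CPM in Control. Their part in the changes of repair transcripts was not tested. In bulk RNA, more cells in a phase and more RNA per cell cannot be told apart.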

How the data were processed

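RNA of 2 FB23-2 and 2 Control libraries of J.gamma1 cells was measured. Trizol RNA and Illumina TruSeq libraries were used, per the labels' protocols. The values are whole-number counts per gene as deposited by the authors, without normalization. Per the submitters' processing notes, HISAT2 2.2.0, StringTie and hg38 were used. How genes were counted, with which annotation and strand setting, is not given in the sources used here, so overlapping genes can share reads.

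Names came from a table of gene symbols, and coordinates and exon lengths from GENCODE release 29 (56591 IDs matched). Of 64252 IDs, 18817 passed filterByExpr of edgeR 4.0.16 (minimum count 10). In every library 99.9% of counts fell in these genes. After TMM scaling, groups were compared with glmQLFit (robust) and glmQLFTest in R 4.3.3, with Benjamini-Hochberg adjustment over all tested genes and a threshold of 0.05. The SE is the absolute log2 fold change over the square root of F. A count of 3 corresponds to 0.0785 to 0.125 CPM, and members had at least 324 counts in each library. That count of 3 covers counting error only, while the edgeR test also takes in variation between replicates. The script was tested on simulated data.

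The members and lists were chosen with earlier results of these data known. Members with per-library values are those called at an absolute log2 fold change of 0.5 or more and the highest and lowest of each role. Of the further genes, the 6 highest and 6 lowest called are named. Per-library values of BRCA1, BARD1, EXO1, XRCC6 and PRKDC were added after their values were seen. Alternatives were other scalings, filters, DESeq2 1.42.0, a replicate block, each library left out, removal of length and GC trends, and a test against 1.5-fold. Replicate numbers were not treated as pairs. Some items are not reported here.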

Additional observations from a re-analysis of the deposited data

How the results depend on the processing

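Without a single library the 25 changed members became 21 to 23, with 11 to 13 higher and 9 to 11 lower. All genes changed numbered 5647 to 6596 in those fits, and further repair genes 43 to 51. A left-out library leaves an arm with 1 sample, which is then assumed to vary like the other group. With upper quartile scaling 17 members were lower instead of 11. In the test against 1.5-fold, 1 member passed (0 higher, 1 lower), as did 9 further repair genes (5 higher, 4 lower) and 1112 genes overall (434 higher, 678 lower). Outside that test, 20 of 25 called members passed in all 12 other settings, and the exceptions were WRN, CHEK2, FANCC, FANCG and LIG3. Of the 27 members not called, 11 passed in at least 1 setting. No called member changed sign in any of the 13 settings, while 11 uncalled members did. Replicate numbers are shared between groups, but nothing in the labels says that they pair samples, and the correlation of same-numbered deviations was 0.0623. With the replicate number as a block, 27 members were called (15 higher, 12 lower).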

Other observations

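Among the genes with the lowest values, ALKBH2 and UNG are close neighbours on chromosome 12 of hg38, which was noticed after their values were seen. ALKBH2 lies at 109088188 to 109093631 on the minus strand and UNG at 109097574 to 109110992 on the plus strand, so that they point away from each other. ALKBH2 stood at 0.446 times and UNG at 0.475 times its Control level with FB23-2. PARP2 and APEX1 are both on the plus strand of chromosome 14, at 20343582 to 20357905 and 20455191 to 20457772. They lie farther apart than ALKBH2 and UNG do. PARP2 and APEX1 went opposite ways, at 1.77 times the Control level for PARP2 and 0.499 times for APEX1.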
